A study of Mus musculus with 574 samples.

Results

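The cells described here are those mouse granulocyte/macrophage progenitors (GMPs), from bone marrow, whose RNA levels of mitosis genes were highest. They were chosen by a score, the mean of log2(CPM + 1) over 8 genes (Ccnb1, Ccnb2, Cdc20, Plk1, Aurka, Ube2c, Prc1 and Cenpf), where CPM is a gene's read count scaled to a common total of reads in genes per cell. The top 25% of each set of cells by this score form the mitosis-high class, 128 of 500 kept cells, and the 372 other kept cells of the same sets are its comparison. Of 573 cells, 500 passed the minimum of 50000 reads in genes and of 1000 detected genes and were kept. The cells came from C57Bl/6 mice of 6 to 12 weeks. The protocol gave 5-fluorouracil (5-FU), a drug whose metabolite blocks thymidylate synthase, once at 150 mg/kg. This dose is listed for every set, day 0 included, but whether the day 0 mice had been injected is not stated. The sort took cells with CD34, Fc gamma receptors and c-Kit and without Sca-1 or lineage antigens, and single cells were sequenced with Smart-seq2, which reads whole transcripts and marks no molecules. The sets are day 0, a first and a second set of day 8, day 10, day 12 and day 14 after 5-FU, with 23, 23, 24, 24, 22 and 12 mitosis-high cells and 69, 67, 69, 69, 63 and 35 other cells. The labels tie neither the PBS control injection nor the crushed or flushed bones of the protocol to a set, do not say how many mice a set pools, and do not say that the day 8 sets came from separate mice. The median cell had 127892 to 417526 reads in genes in the mitosis-high class of a set and 67942 to 244191 in the other cells, and summed over the class a set held 1633637 (day 14) to 10614034 reads. Values per set are given below in this order of days, the first day 8 set before the second.

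Dividing cells make the mitosis genes late, in G2 and mitosis, and the DNA replication genes earlier, in late G1 and S phase. The kinases Plk1 and Aurka and cyclin B with its kinase drive entry into mitosis. The anaphase-promoting complex, a ubiquitin ligase with the coactivator Cdc20 and later Fzr1 (Cdh1) and the E2 enzyme Ube2c, then destroys cyclin B and the inhibitor of separase, and the cell divides. GMPs are dividing progenitors that give rise to neutrophils and monocytes. They carry the RNAs of primary granule proteins such as Mpo and Elane, and of monocyte genes such as Irf8 and Csf1r.

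Many promoters of G2 and mitosis genes are known to carry a CHR element, with the letters TTTGAA, close to CCAAT boxes, while replication genes are known for E2F sites. The 300 bases around the annotated gene start (250 before and 50 after, from RefSeq, build GRCm38.p6, read along the gene) were searched for TTTGAA and for CCAAT on both strands. They are printed here for 3 genes that chose the cells and for Espl1 and Fzr1, genes outside the score that rose in the class, with TTTGAA or TTCAAA and CCAAT or ATTGG in capitals.
Plk1 (chr7:122159185-122159484, plus strand): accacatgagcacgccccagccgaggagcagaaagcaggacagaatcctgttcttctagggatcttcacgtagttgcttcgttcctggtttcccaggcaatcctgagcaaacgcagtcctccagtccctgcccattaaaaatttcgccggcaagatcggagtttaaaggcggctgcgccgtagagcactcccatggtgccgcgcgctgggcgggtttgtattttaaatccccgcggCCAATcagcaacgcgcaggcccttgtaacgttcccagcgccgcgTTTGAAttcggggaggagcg
Cdc20 (chr4:118437294-118437593, minus strand): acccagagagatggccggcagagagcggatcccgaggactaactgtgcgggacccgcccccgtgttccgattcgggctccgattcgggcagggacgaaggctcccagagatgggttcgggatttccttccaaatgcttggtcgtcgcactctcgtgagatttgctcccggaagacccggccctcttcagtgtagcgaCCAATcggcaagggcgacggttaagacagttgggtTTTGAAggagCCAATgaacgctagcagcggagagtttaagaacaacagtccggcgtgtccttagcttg
Ccnb1 (chr13:100786437-100786736, minus strand): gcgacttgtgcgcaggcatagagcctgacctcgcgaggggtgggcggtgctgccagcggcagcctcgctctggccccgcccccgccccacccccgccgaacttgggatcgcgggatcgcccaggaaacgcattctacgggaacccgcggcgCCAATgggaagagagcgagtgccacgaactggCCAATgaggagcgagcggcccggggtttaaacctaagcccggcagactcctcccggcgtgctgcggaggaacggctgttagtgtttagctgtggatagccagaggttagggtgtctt
Espl1 (chr15:102296043-102296342, plus strand): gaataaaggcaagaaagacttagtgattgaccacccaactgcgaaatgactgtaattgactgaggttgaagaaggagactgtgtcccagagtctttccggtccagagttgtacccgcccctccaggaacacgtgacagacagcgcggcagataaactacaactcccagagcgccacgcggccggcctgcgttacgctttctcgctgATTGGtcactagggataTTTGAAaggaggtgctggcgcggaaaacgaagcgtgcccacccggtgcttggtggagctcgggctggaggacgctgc
Fzr1 (chr10:81378321-81378620, minus strand): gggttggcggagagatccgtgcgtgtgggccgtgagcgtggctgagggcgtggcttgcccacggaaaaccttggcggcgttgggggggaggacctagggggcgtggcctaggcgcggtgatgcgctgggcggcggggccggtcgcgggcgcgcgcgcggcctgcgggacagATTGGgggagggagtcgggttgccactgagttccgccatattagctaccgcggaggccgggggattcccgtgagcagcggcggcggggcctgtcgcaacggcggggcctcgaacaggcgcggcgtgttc
The letters TTTGAA stood in the window of 7 of 8 score genes, all but Ccnb1, and of 40 of the 62 other mitosis genes with an entry (64.5%), against 20.2% of all 27025 genes of the table. CCAAT stood in the windows of 8 of 8 score genes and 71% of these mitosis genes, against 41.1% of all genes. Both sets of letters stood in 54.8% of the mitosis genes and 8.0% of all genes. Their letters overlapped in 47 promoter entries of the whole table, in 0 of them for a score gene. Windows of Dtl and Hells, replication-linked genes that were lower in the class, were searched for TTT, then C or G, then C or G, then CGC, the letters of a strict E2F site, on both strands, and carry them in capitals.
Dtl (chr1:191575495-191575794, minus strand): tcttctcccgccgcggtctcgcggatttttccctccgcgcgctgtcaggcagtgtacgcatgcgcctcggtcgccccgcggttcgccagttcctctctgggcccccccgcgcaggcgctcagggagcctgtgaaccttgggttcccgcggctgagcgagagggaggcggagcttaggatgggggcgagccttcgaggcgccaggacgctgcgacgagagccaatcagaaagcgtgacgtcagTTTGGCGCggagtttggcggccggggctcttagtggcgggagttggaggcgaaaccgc
Hells (chr19:38930740-38931039, plus strand): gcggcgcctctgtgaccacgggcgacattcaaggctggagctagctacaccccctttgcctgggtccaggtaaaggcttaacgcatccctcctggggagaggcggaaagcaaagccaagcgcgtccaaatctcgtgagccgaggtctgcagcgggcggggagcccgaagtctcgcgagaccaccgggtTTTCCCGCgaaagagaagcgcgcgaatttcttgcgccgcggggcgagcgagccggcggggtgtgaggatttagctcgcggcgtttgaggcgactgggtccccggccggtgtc
These letters stood in 2.6% of all genes, in 8.1% of the mitosis genes and in 0 of 8 score genes. A match describes the letters of the window and is not a measured site.

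The score genes were used to choose the cells, so their values describe the choice. For shares of cells with a read, cells were thinned at random to 50000 reads and the class was cut again on the thinned counts. Of the 128 mitosis-high cells, 122 were also in this thinned class. In it, Plk1 had a read in 98.4% of mitosis-high cells and 38.4% of other cells, and Ube2c in 99.2% of mitosis-high cells and 42.7% of other cells. Ccnb1 had a read in 96.9% of mitosis-high cells and 46.2% of other cells, so many other cells hold some mitosis RNA and the class is the upper range of a continuous score. The lowest score of a mitosis-high cell and the highest of an other cell were 5.80 and 5.54 on day 0, 6.01 and 6.00 in the first day 8 set, and 6.40 and 6.40 in the second. On day 10 they were 5.74 and 5.64, on day 12 5.41 and 5.21, and on day 14 5.18 and 5.17. In all, 13 mitosis-high cells and 15 other cells lay within 0.25 score units of their set's cut. A common cut over all sets, at a score of 5.94, took 21.7% of day 0 cells, 26.7% and 32.3% of the day 8 sets, 22.6% of day 10, 24.7% of day 12 and 19.1% of day 14.

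**Figure D1:**
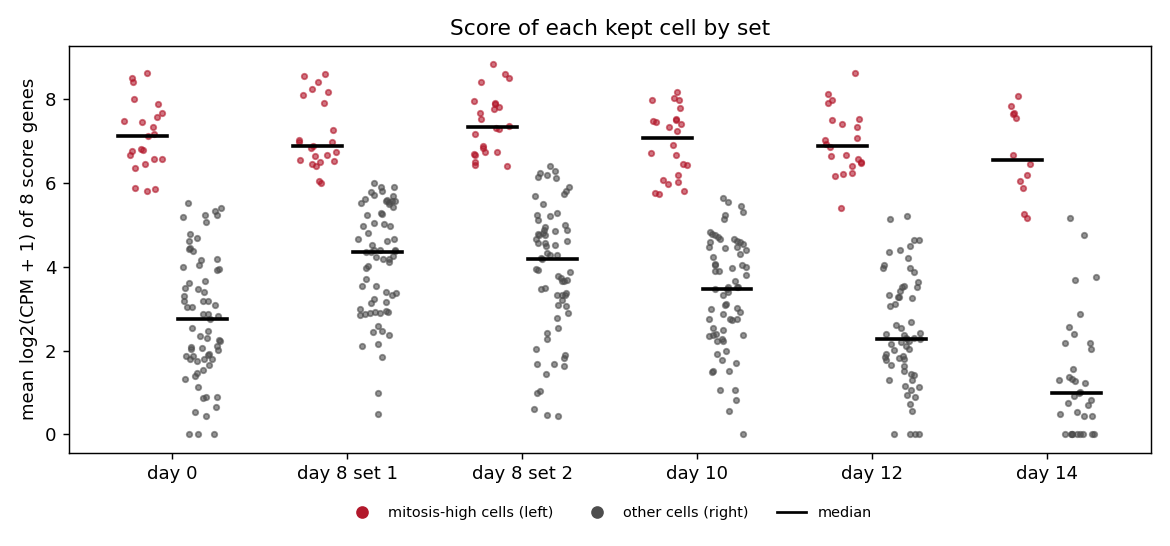
Mitosis score of every kept cell (mean log2(CPM + 1) of 8 genes, vertical axis) by set (horizontal axis), with mitosis-high cells left of the other cells of the same set. The cells run without a gap across the cut in the second day 8 set, where both scores at the cut are 6.40, and with the widest gap on day 0, at 5.80 and 5.54.

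Genes that did not enter the score followed it. Of 76 further mitosis genes, 73 stood higher in the class, with a median log2 difference of 1.36, and of 43 DNA replication genes 42 stood lower, with a median of -0.68, where the median of all 12368 genes tested was -0.03. These values carry no test because the score measures the same cell cycle. Mki67, the proliferation antigen Ki-67, averaged 224 ± 31.2 CPM in mitosis-high cells and 87.7 ± 20.1 CPM in other cells, and Top2a, the topoisomerase that untangles sister chromatids, 445 ± 65.9 and 167 ± 30.5 CPM (SD, n = 6 sets each). Of the exceptions, Mybl2, a cell cycle transcription factor, had a log2 difference of -0.80. Among replication genes, Ccne2, cyclin E2, averaged 13.2 ± 7.56 CPM in mitosis-high cells and 57.8 ± 26.7 CPM in other cells, and the licensing factor Cdt1 70.8 ± 15.6 and 173 ± 15.3 CPM. Here and below, CPM are counts summed over the cells of a class and set and scaled with TMM factors (trimmed mean of M values), and a log2 difference is mitosis-high over other cells unless days are named.

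Mitosis-high cells had more reads in genes relative to reads of the added spike-in RNA. The median reads in genes per spike-in read were 48.7, 90.7, 87.3, 83.2, 59 and 69.6 in the mitosis-high cells of the 6 sets, against 37.9, 77.4, 66.4, 55.9, 45.1 and 32.7 in the other cells. The ratio was above 1 in 6 of 6 sets, 1.42-fold on average (log2 0.51 ± 0.31 SD), with a two-sided exact permutation p of 0.03125, the smallest that 6 sets allow, and 0.03125 after adjustment over 3 measures. Reads in genes were 1.48-fold higher and genes with a read 1.14-fold higher, each in 6 of 6 sets and with the same exact permutation p of 0.03125. A cell with few reads can miss score genes and so fall among the other cells. The 3 measures are thus partly tied to the choice of cells, and their p-values cannot set that part aside. Genes with a read were also counted after thinning to 50000 reads, with the class cut again on the thinned counts. The median cell then had 5500, 6101, 6089, 5894, 5445 and 5309 genes with a read in the mitosis-high class, against 4976, 5772, 5764, 5418, 5056 and 4558 in other cells. Slc34a2, a phosphate transporter gene that takes a large share of reads in these libraries, stood at a median of 7.99 to 21.5% of gene reads in mitosis-high cells and 9.93 to 33.8% in other cells. It was lower in the mitosis-high cells of each of the 6 sets. Wells were sorted for single cells and no doublet caller was run, and whether a well held more than 1 cell was not tested.

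**Figure D2:**
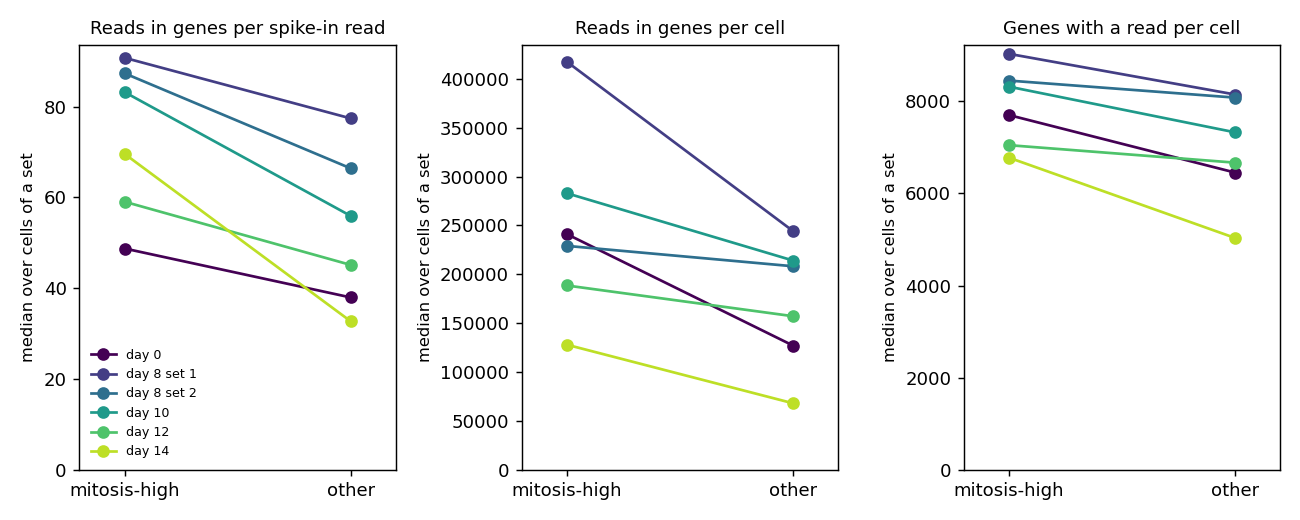
Median reads in genes per spike-in read, reads in genes and genes with a read (vertical axes) in each of the 6 sets, mitosis-high cells left and other cells right, with a line joining the classes of a set. All 6 lines lie higher at the mitosis-high end in each panel.

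Outside the score, mitosis and DNA replication lists, the 2 classes were compared over the 6 sets with edgeR's quasi-likelihood test and the set as a block. Of 12368 genes tested, 45 were higher in mitosis-high cells (0.364%) and 49 were lower (0.396%) at an adjusted p under 0.05, 94 in all (0.76%). All 6 sets had the same direction for 44 of the 45 and for 49 of the 49. Calls fell to 10 higher and 4 lower without day 0, 20 and 9 without the first day 8 set, 19 and 7 without the second, 17 and 6 without day 10, 13 and 7 without day 12, and 39 and 29 without day 14. With other cells matched to mitosis-high cells on reads in genes, 11 were higher and 7 lower. Many called genes belong to the cell cycle programme that chose the cells, although no list here held them, so their direction is largely set by the choice. For those known from division or DNA replication, the values below are a description, with no test.

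Fzr1, one of the named genes higher in mitosis-high cells, encodes the coactivator that takes over the anaphase-promoting complex from Cdc20 at mitotic exit. It had 177, 158, 166, 161, 159 and 144 CPM in the mitosis-high cells of the 6 sets, against 56.9, 60.3, 46.3, 46.3, 62 and 47.2 CPM in other cells. The sets varied little, with a log2 difference of 1.60 ± 0.11 (SE). Espl1, separase, the protease that cuts the cohesin ring between sister chromatids, had 26.4, 33.8, 23.6, 46.8, 60.8 and 48.8 CPM in mitosis-high cells, against 12.6, 15.9, 10.0, 21.9, 18.5 and 5.79 CPM in other cells. The log2 difference of Espl1 was 1.47 ± 0.26, and day 14 stood apart with the highest ratio. Odf2, a protein of the mother centriole's appendages, averaged 74.5 ± 19 CPM in mitosis-high cells and 34.1 ± 5.95 CPM in other cells (SD, n = 6 sets; log2 1.10 ± 0.16).

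The other named genes higher in mitosis-high cells have varied roles. Calls of the named rises depended on the processing, from 10 of 20 settings for Ankle1 to 20 of 20 for Fzr1. G2e3, a ubiquitin ligase, averaged 41.7 ± 6.77 CPM in mitosis-high cells and 12.5 ± 3.38 CPM in other cells (log2 1.74 ± 0.21), and Trim59, of the TRIM family of ligases, differed by log2 1.61 ± 0.28. Pif1, a DNA helicase, had the largest log2 difference of the named rises, 2.60 ± 0.44, with 22 to 83.4 CPM in mitosis-high cells and 0 to 8.93 CPM in other cells. Ankle1, an endonuclease that acts on DNA bridges in dividing cells, differed by log2 1.28 ± 0.21, and Arhgef39, a guanine nucleotide exchange factor, by 1.30 ± 0.15. Sapcd2, known from spindle orientation, differed by log2 2.14 ± 0.29 and Miip by 1.84 ± 0.26. Chosen after their values were seen, Knl1, the kinetochore scaffold, differed by log2 1.02 ± 0.16, Bora, a cofactor for Plk1 activation by Aurka, by 1.03 ± 0.15, and Kpna2, a nuclear import receptor, by 2.47 ± 0.27. The abundant tubulin gene Tubb5 averaged 2702 ± 553 CPM in mitosis-high cells and 1416 ± 279 CPM in other cells, and the polyubiquitin gene Ubb 867 ± 194 and 482 ± 63.5 CPM. Both have near copies in the genome, and reads could be split among them.

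Of 14 measured D cyclins, their partners and cell cycle inhibitors, edgeR called 1 higher, Cdkn2d, and 0 lower, with 4 at an unadjusted p under 0.05. DESeq2 called 2 of them higher and 1 lower, and limma voom 2 higher. Cdkn2d encodes p19INK4d, an inhibitor of the cyclin D kinases Cdk4 and Cdk6. It had 65.7, 62.6, 52.1, 42.2, 43.9 and 44.8 CPM in mitosis-high cells, against 24.4, 23.4, 26.7, 23.1, 25.6 and 17 CPM in other cells, with no overlap (log2 1.14 ± 0.16). As a gene of the cell cycle it can follow the cycle that chose the cells, so its values are a description and its call is not independent of the choice. Cdkn2d was called in 13 of 20 settings. The median log2 difference of the list was -0.10. Cdk6, its abundant target, averaged 877 ± 72.2 CPM in mitosis-high cells and 817 ± 56.5 CPM in other cells (log2 0.10, 95% interval -0.06 to 0.26, adjusted p = 0.587). Ccnd2, cyclin D2, averaged 181 ± 37.5 and 240.5 ± 66.6 CPM (log2 -0.39, interval -0.63 to -0.14, adjusted p = 0.183).

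Among the named genes lower in mitosis-high cells, the log2 difference was farthest from 0 for Ung. Ung, the glycosylase that removes uracil from DNA, had 2.67, 28.2, 9.24, 2.67, 8.66 and 2.67 CPM in mitosis-high cells, against 100.1, 122, 75.8, 102, 138 and 115 CPM in other cells. The highest mitosis-high value, of the first day 8 set, stood below the lowest other value, of the second (log2 -3.90 ± 0.42). Without thinning, 56.2% of mitosis-high cells and 86% of other cells had a read of Ung. With cells matched on reads in genes its log2 difference was -4.08.

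Hells, a chromatin remodeller needed for DNA methylation, had 51.5, 69.2, 78.1, 46.5, 62.7 and 62.8 CPM in mitosis-high cells, against 102, 175, 128, 136, 117 and 118 CPM in other cells. Dtl, the adaptor that marks Cdt1 for destruction in S phase, had 84.4, 77.6, 67.1, 57.6, 86 and 56.1 CPM in mitosis-high cells, against 146, 146, 142, 112, 166 and 142 CPM in other cells. The log2 difference was -1.07 ± 0.13 for Hells and -0.99 ± 0.10 for Dtl. Casp8ap2, which takes part in processing histone mRNAs, differed by log2 -0.97, though on day 14 it had 13.4 CPM in mitosis-high cells and 13.7 CPM in other cells. Casp8ap2 was called in 9 of 20 settings. Like it, the other named falls were called by edgeR but depended on the processing. The nuclear exporter Xpo7, at log2 -1.40, was called in 5 of 20 settings and was at -0.73 with thinned cells. Ckap4, at -0.78, was called in 6 of 20 settings, over which it ranged up to -0.05. Gpr180 at -1.26 was called in 9 of 20, Ccdc105 at -0.69 in 11 of 20 and Arl6ip6 at -1.23 in 13 of 20. Of the 12 named falls, 10 had a promoter entry and 4 of these held the E2F letters, in Dtl, Hells, Arl6ip6 and Casp8ap2. Of the 12 named rises, 10 had an entry, 5 with TTTGAA and 6 with CCAAT. Of the 49 falls, 29 lay between log2 -0.7 and 0, with a median of -0.61, and their median was -0.31 when other cells were matched on reads in genes, with 29 of 29 below 0.

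**Figure D3:**
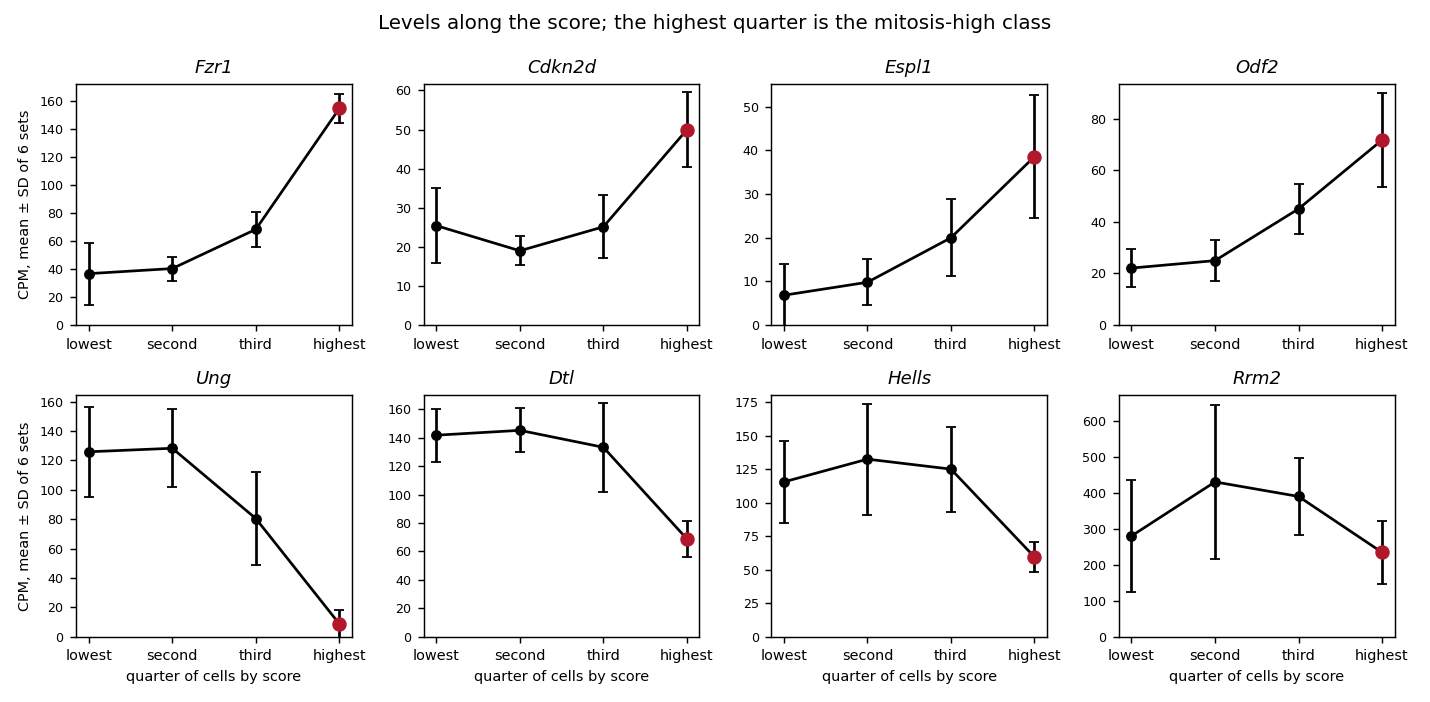
Mean CPM (points, with SD of 6 sets as bars, vertical axes from 0) of Fzr1, Cdkn2d, Espl1, Odf2, Ung, Dtl, Hells and Rrm2 in 4 score ranges of 25% of the cells of each set (horizontal axis, lowest score left, the mitosis-high class right in red). Fzr1 is highest in the mitosis-high range, at 154.8 CPM, whereas Ung drops to 8.69 CPM there.

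The cells of each set were also cut into 4 score ranges of 25% each, with the mitosis-high class as the highest range and TMM factors of their own, so its values differ slightly from those above. From the lowest range to the highest, Ung averaged 125.9, 128.3, 80.4 and 8.69 CPM, and Fzr1 36.7, 40.4, 68.4 and 154.8 CPM. Rrm2, a ribonucleotide reductase subunit, averaged 280, 430, 390 and 234 CPM, so its highest mean lay in the second range. Cdkn2d averaged 25.4, 19, 25.1 and 49.95 CPM. Levels of Dtl were 142, 145, 133 and 68.8 CPM and those of Hells 116, 133, 125 and 59.5 CPM, so the drop lay at the last range.

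Of 29 nucleotide synthesis genes, edgeR called 2 lower and 0 higher, beside 0.396% of all genes lower, with a list median of -0.23. At an unadjusted p under 0.05 it had 12, and DESeq2 called 6 lower and limma voom 2 lower. Members that follow DNA replication are tied to the choice of cells, so these counts are partly set by it. Rrm2, one of the genes called lower, had 202, 381, 263, 282, 220.1 and 110.2 CPM in mitosis-high cells, against 249.9, 656, 421, 405, 326 and 276 CPM in other cells. It was lower within each set, while the sets themselves differed more than the classes did (log2 -0.69 ± 0.12, called in 9 of 20 settings). Tyms, thymidylate synthase itself, the enzyme that the drug's metabolite blocks, averaged 118 ± 11.6 CPM in mitosis-high cells and 139.5 ± 11.8 CPM in other cells (log2 -0.24, interval -0.43 to -0.05) and was not called (adjusted p = 0.298). Slc29a1, a transporter of nucleosides across the cell membrane, fell as well, to 52.3 ± 10.9 CPM in mitosis-high cells, against 93.9 ± 8.88 CPM in other cells (log2 -0.86 ± 0.12, adjusted p = 0.0139). It was called in 11 of 20 settings.

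The lists of energy metabolism held 0 calls by edgeR, which for lists this short is near the 0.76% of all genes called. Of 18 glycolysis genes 0 rose and 0 fell (median -0.01, range -0.30 to 0.21), and of 21 genes of the TCA cycle and 26 of the nuclear respiratory chain likewise 0 in either direction (medians 0.14 and 0.12). At an unadjusted p under 0.05 these lists held 1, 3 and 4 genes, and DESeq2 and limma voom called 0 in each. Ldha, lactate dehydrogenase, averaged 1610.0 ± 621 CPM in mitosis-high cells and 1785 ± 636 CPM in other cells (log2 -0.16, interval -0.31 to -0.01, adjusted p = 0.358). The 13 mitochondrially encoded genes had a median of -0.12, the 28 ribosome biogenesis genes -0.11, the 18 proteasome genes 0.08, the 17 chaperones 0.06 and the 13 serine and folate genes -0.11, with 0 calls in each by edgeR and limma voom. DESeq2 called 1 ribosome biogenesis and 1 serine and folate gene lower, and at an unadjusted p under 0.05 edgeR had 0, 5, 0, 1 and 2 genes of these lists. Of 22 cholesterol genes 0 were called by edgeR (2 at an unadjusted p under 0.05) and 1 by DESeq2, though their range was wide, from -0.95 for Idi1 to 0.98 for Mvk. Fasn, fatty acid synthase, was the 1 gene called by edgeR among 10 measured fatty acid synthesis genes (4 at an unadjusted p under 0.05), of which DESeq2 called 2 lower. It averaged 61.9 ± 17.3 CPM in mitosis-high cells and 97.2 ± 12.7 CPM in other cells and was lower in 6 of 6 sets (log2 -0.67 ± 0.12, adjusted p = 0.0366), but it was called in only 5 of 20 settings. Myc, the growth transcription factor, averaged 298 ± 93 CPM in mitosis-high cells and 382 ± 90.1 CPM in other cells (log2 -0.39, interval -0.71 to -0.07, adjusted p = 0.302).

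**Figure D4:**
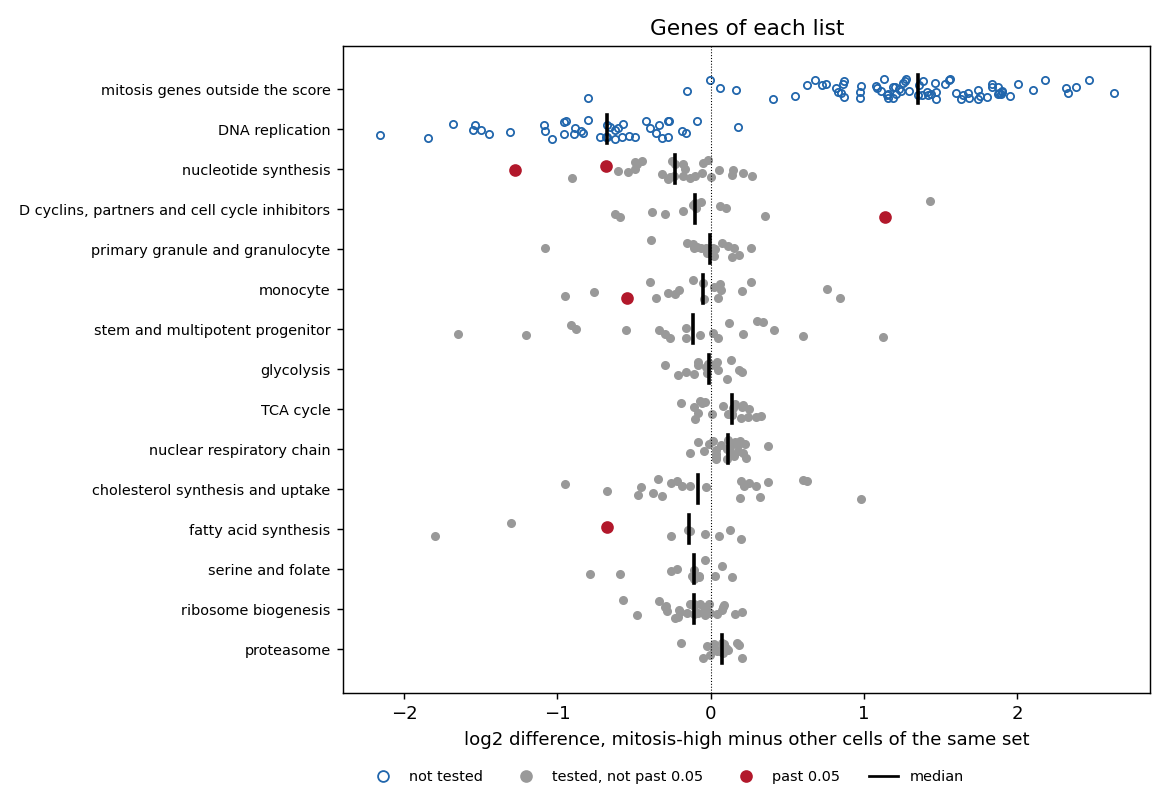
Log2 difference of mitosis-high over other cells (horizontal axis) for the members of each gene list that passed the expression filter (rows), with a black bar at each list's median, a dotted line at 0, open points for untested genes and red points for called ones. The mitosis list lies right (median 1.36), the DNA replication list left (median -0.68), and the medians of the glycolysis, granulocyte and monocyte lists near 0.

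Lineage genes gave few calls between the classes, as did all genes, of which 0.76% were called, so lists this short say little. Of 18 primary granule and granulocyte genes 0 rose and 0 fell by edgeR, with a median of -0.01 (1 at an unadjusted p under 0.05, and 0 called by DESeq2 or limma voom). Elane, neutrophil elastase, had 17607, 1723, 3491, 11912, 14711 and 23307 CPM in mitosis-high cells, against 17313, 3078, 2665, 11966, 16286 and 17605 CPM in other cells. The days differed far more than the classes, and the log2 difference of the classes was -0.03 (interval -0.32 to 0.27, adjusted p = 0.958). Mpo, myeloperoxidase, averaged 41500.0 ± 18603 CPM in mitosis-high cells and 36575 ± 14587 CPM in other cells (log2 0.15, interval -0.05 to 0.35, adjusted p = 0.515). Cebpa, the transcription factor that GMPs need to form, was higher in mitosis-high cells of 6 of 6 sets but was not called, with 85.5 ± 19.98 and 70.4 ± 12.1 CPM (log2 0.26, interval 0.02 to 0.51, adjusted p = 0.37). The genes behind the sort had log2 differences of -0.10 for Kit, 0.02 for Cd34 and -0.07 for Fcgr3, and 0 of 6 measured members called (1 at an unadjusted p under 0.05, and 0 called by DESeq2 or limma voom).

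Of 19 measured monocyte genes 1 was called lower and 0 higher by edgeR, with a median of -0.05. The called gene is Ccl9, a chemokine, with 287, 297, 217, 607, 252 and 448 CPM in mitosis-high cells, against 431, 450.3, 427, 658, 359 and 623 CPM in other cells. It was lower in each set, though the groups overlap across sets (log2 -0.54 ± 0.10, adjusted p = 0.0414, called in 7 of 20 settings). Irf8, the transcription factor of the monocyte branch, had 529.9, 257, 11.0, 296, 615 and 613 CPM in mitosis-high cells, against 509, 158, 181, 173, 378 and 418 CPM in other cells. It was higher in 5 of 6 sets and low in the mitosis-high cells of the second day 8 set (log2 0.05, interval -1.05 to 1.15, adjusted p = 0.98). The same 24 cells had 1.97 CPM of Csf1r, the M-CSF receptor, 27.7 CPM of Ly6c2 and 0.12 CPM of Ly86, against 41, 343 and 10.9 CPM in the other cells of that set. The monocyte list summed to 934 CPM in these mitosis-high cells and 2177 CPM in the other cells of the set, and in the first day 8 set to 3113 and 2778 CPM.

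Stem, erythroid and other lineage lists gave no calls between the classes by edgeR. Of 25 stem and multipotent progenitor genes 20 were measured and 0 called (median -0.12), with 3 at an unadjusted p under 0.05 and 1 called by DESeq2. Of 14 erythroid genes 6 were measured and 0 called (median 0.32), with 3 at an unadjusted p under 0.05 and 1, Car2, called by limma voom. Car2, carbonic anhydrase of red cells, had 19.2, 190.4, 196, 60.4, 12.8 and 4.68 CPM in mitosis-high cells, against 21.2, 54.3, 100.2, 26.9, 13.4 and 9.11 CPM in other cells, higher in 3 of 6 sets (log2 0.67, interval 0.04 to 1.30, adjusted p = 0.372 by edgeR). Gata2, a transcription factor of stem cells and of the mast cell and megakaryocyte lines, had 12.8, 85.9, 88.3, 24.7, 49.1 and 10.7 CPM in mitosis-high cells, against 29.8, 41.9, 57.4, 14.3, 30.3 and 1.24 CPM in other cells. It was higher in 5 of 6 sets (log2 0.60, interval -0.14 to 1.34, adjusted p = 0.478). The erythroid list summed to 83.7, 389.8, 323, 191.6, 84.9 and 48.8 CPM in mitosis-high cells, against 100.3, 153.5, 244.8, 105.3, 119.1 and 82.4 CPM in other cells, so it was higher in the mitosis-high cells of days 8 and 10 and lower in those of days 0, 12 and 14. Klf1, the erythroid transcription factor, was counted after thinning, with the class cut again on the thinned counts. It had a read in 6 of 23 mitosis-high cells and 2 of 67 other cells of the first day 8 set, and in 5 of 24 and 9 of 69 cells of the second. Whether the difference between the classes varies between days was tested for all genes and was not called for Gata1, Gata2 or Car2 (adjusted p = 0.353 each). Macrophage, lymphoid, dendritic and stromal lists had 3 or 4 measured members each and 0 calls by edgeR, while DESeq2 called 2 macrophage genes and 1 stromal gene lower. The 9 macrophage genes summed to 8.66 to 28.1 CPM in mitosis-high cells and 12.3 to 53.4 CPM in other cells and were lower in 6 of 6 sets. The 11 mast cell and basophil genes, of which 5 were measured, 0 called by edgeR and 2 called lower by DESeq2, summed to 198 to 399 CPM in mitosis-high cells and 296 to 569 CPM in other cells.

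**Figure D5:**
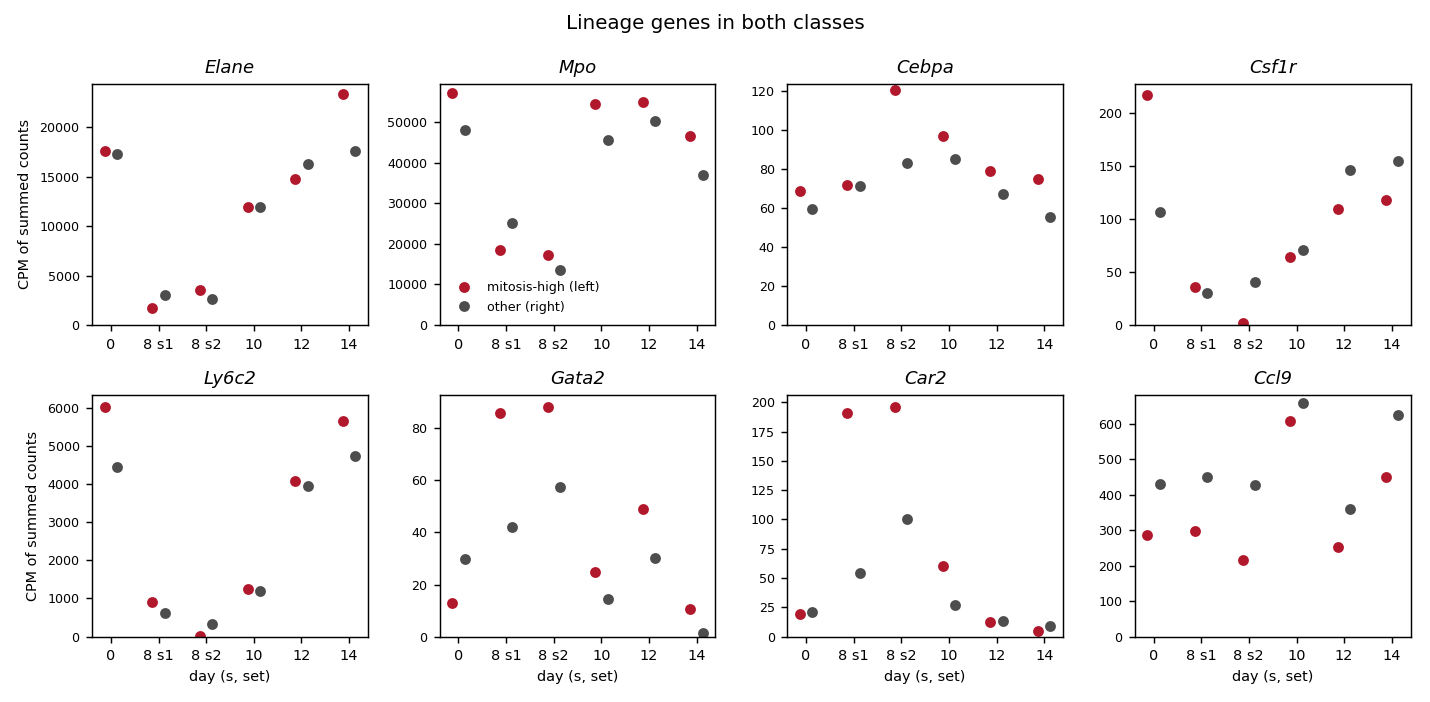
CPM (vertical axes, linear from 0) of Elane, Mpo, Cebpa, Csf1r, Ly6c2, Gata2, Car2 and Ccl9 in each of the 6 sets (horizontal axis), with mitosis-high cells left of the other cells of the set. For Elane and Mpo the days lie farther apart than the classes of a set, and Csf1r and Ly6c2 drop to 1.97 and 27.7 CPM in the mitosis-high cells of the second day 8 set.

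Within the mitosis-high class, day 8 was compared with day 0. A difference found here need not be particular to the class, since the other cells shifted the same way in summed CPM of several lists. On day 0 and in the 2 day 8 sets, the other cells had 3968, 7208 and 5635 CPM of glycolysis genes. Stem genes had 882, 1669 and 2264 CPM there, primary granule and granulocyte genes 82936, 45172 and 29855 CPM, and monocyte genes 7889, 2778 and 2177 CPM. The days were not tested in the other cells. The comparison within the class rests on 2 sets of day 8 and 1 of day 0. Its fit over the mitosis-high sums of all sets had 1 residual degree of freedom. The spread of every day is therefore taken from the day 8 sets and from other genes. Of 12953 genes, 150 were higher on day 8 (1.16%) and 157 lower (1.21%). DESeq2 called 51 and 41, and one fit together with the other cells 26 and 28. The cells of both days were chosen for a high mitosis score, with class medians of 7.125 on day 0 and 6.889 and 7.341 on day 8. This choice largely evens out the cell cycle genes, so they cannot show whether that programme differs between days. Of 76 mitosis genes 0 were called, and of 43 replication genes 0 (medians -0.14 and 0.18, against 0.05 for all genes, with 9 and 6 at an unadjusted p under 0.05 and 0 called by DESeq2). Fzr1, which follows the score as well, differed by log2 -0.09 (interval -0.74 to 0.55). Eif2s3y, on the Y chromosome, had 72.1 and 48.3 CPM in the mitosis-high cells of day 8 and 0.36 CPM in those of day 0, so day and the sex of the mice cannot be told apart in this comparison.

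Some granulocyte and monocyte genes of the class were lower on day 8. Of 18 primary granule and granulocyte genes edgeR called 5 lower and 0 higher, beside 1.21% of all genes lower and 1.16% higher. DESeq2 called 2 lower. The same shares of all genes stand beside the other edgeR list counts of this paragraph. Elane fell by 2.73 on the log2 scale (adjusted p = 2.41e-10) and Mpo by 1.64, with 18586 and 17315 CPM on day 8 and 57228 CPM on day 0 (adjusted p = 1.22e-08). Of 19 measured monocyte genes edgeR called 5 lower and 0 higher, with a median of -1.74, and DESeq2 1 lower. Csf1r had 36 and 1.97 CPM on day 8 and 217 CPM on day 0 (log2 -3.45 ± 0.56, adjusted p = 0.000145), and Ly6c2, whose reads could be split with Ly6c1, had 921 and 27.7 CPM on day 8 and 6028 CPM on day 0 (log2 -3.62 ± 0.62, adjusted p = 0.000309). Both day 8 sets stood below day 0, and they differed from each other. The largest fall among named genes was in S100a8, a calprotectin subunit of neutrophils, with 0.33 and 3.81 CPM on day 8 and 74.1 CPM on day 0 (log2 -5.21 ± 0.55, adjusted p = 1.54e-08). The other named falls were Alcam, an adhesion molecule, at -4.17, Ly86 at -3.36, Ifi209 at -3.57, and H2-Q6 and Ly6c1 at -4.26 and -4.03, the last pair from families of near-identical genes whose reads are uncertain. Lcn2, lipocalin of neutrophil granules, was higher, with 65 and 119 CPM on day 8 and 11.0 CPM on day 0 (log2 3.09, adjusted p = 4.35e-05), so of 4 measured late neutrophil genes 1 was called higher and 1 lower. Fcgr3, a sort gene, had 78.4 and 127 CPM on day 8 and 261 CPM on day 0 (log2 -1.32, adjusted p = 0.0144, edgeR). By edgeR 2 of 6 sort genes were lower, and by DESeq2 0.

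Some stem genes of the class were higher on day 8. The 21 measured stem and multipotent progenitor genes had a median log2 difference of 1.36. Ctla2a, a member without a read in the mitosis-high cells of day 0, could pass the filter through day 8 alone. No count of calls is therefore given for the stem list. Ifitm1, a membrane protein induced by interferon, had 396 and 913 CPM on day 8 and 24.8 CPM on day 0 (log2 4.75 ± 0.46, adjusted p = 2.85e-09). Gata2 had 85.9 and 88.3 CPM on day 8 and 12.8 CPM on day 0 (log2 2.79 ± 0.49, adjusted p = 0.000551). Of 14 erythroid genes, 9 had no read in the mitosis-high cells of day 0, and 6 were measured. A gene with hardly a read on day 0 could pass the filter on low counts through day 8 alone, so no count of calls is given for this list. Gata1, the erythroid and megakaryocyte transcription factor, had 39.7 and 32.2 CPM on day 8 and 0.53 CPM on day 0 (log2 6.06 ± 0.99), and Car2 190.4 and 196 CPM on day 8 and 19.2 CPM on day 0 (log2 3.36 ± 0.43, adjusted p = 1.44e-06). After thinning, Gata1 had a read in 3 of 23 and 6 of 24 mitosis-high cells of the day 8 sets and in 1 of 23 of day 0, so a minority of the cells carries these reads. Itga2b, the platelet integrin, rose by log2 3.41 and Susd1 by 3.40.

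For 3 genes named among the largest rises, the mitosis-high cells of day 0 held no read, so their folds are lower bounds against a floor of 3 reads over the class, 0.534 CPM. On day 8 Mfsd2b, a lipid transporter of red blood cells and platelets, was at least 99.0-fold higher, Ctla2a, a protease inhibitor, at least 101-fold and Perp, a p53 target of cell junctions, at least 68.2-fold. In metabolism, edgeR and DESeq2 each called 3 of 18 glycolysis genes higher and 0 lower, with a median of 0.80. Of all genes, edgeR called 1.16% higher. Ldha had 2373 and 2309 CPM on day 8 and 991 CPM on day 0 (log2 1.27 ± 0.29, adjusted p = 0.00809), Hk1, hexokinase, 138 and 121 CPM on day 8 and 37.8 CPM on day 0 (log2 1.81 ± 0.37, adjusted p = 0.00319), and Pfkl, phosphofructokinase, rose by 1.41 (adjusted p = 0.0186). Of 28 ribosome biogenesis genes edgeR called 1 higher, Nolc1 (log2 1.25, adjusted p = 0.0471), beside 1.16% of all genes, and DESeq2 called 0. The list median was 0.82, with 16 of 28 at an unadjusted p under 0.05 by edgeR. Some stress and handling genes were called, in larger shares of these short lists than the 1.16% of all genes higher and 1.21% lower by edgeR. By edgeR, 2 of 13 immediate early genes fell, Fos (log2 -1.68) and Jun (-1.52), 2 of 17 chaperones rose, Hspd1 (1.38) and Hsph1 (1.57), and the nuclear RNA Neat1 fell by 1.40 (adjusted p = 0.0155, 0.0109, 0.0188, 0.0256 and 0.0384). DESeq2 called 0 immediate early genes, 1 chaperone and not Neat1. Their part in the other differences was not tested. Of 29 nucleotide synthesis genes 0 were called by edgeR or DESeq2 (7 at an unadjusted p under 0.05), with a median of 0.49.

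A test of whether the difference between the classes itself varied between days called 5 of 12368 genes (0.0404%), again with 1 residual degree of freedom. The call depends on the cut, since a class of the top 50% gave 0 genes (1979 at an unadjusted p under 0.05) and cells thinned to 50000 reads gave 367. S100a8 had 74.1, 0.33, 3.81, 24.3, 193 and 27.4 CPM in mitosis-high cells, against 66.6, 53.2, 484, 286, 212 and 17.4 CPM in other cells. It was far lower in the mitosis-high cells of days 8 and 10 and near the other cells on days 0, 12 and 14 (adjusted p = 0.000241). Apoe, apolipoprotein E, had 33.1, 71.8, 131, 91.1, 24.9 and 30.7 CPM in mitosis-high cells, against 114, 17.2, 34.3, 20.4, 74.1 and 7.86 CPM in other cells (adjusted p = 0.0253). It was higher in the mitosis-high cells of days 8, 10 and 14 and lower in those of days 0 and 12. Eif2s3y makes the same split of days, and whether the sex of the mice bears on Apoe was not tested. The others were Cxcl10, a chemokine with 215 CPM in the other cells of day 10 and at most 31.6 CPM elsewhere (adjusted p = 0.0303), and AA474408 and Mir6236 (adjusted p = 4.23e-05 and 0.00585). Cpa3, the mast cell carboxypeptidase, was just outside, with an adjusted p of 0.0549, and was lower in the mitosis-high cells of 6 of 6 sets, with 39.3 ± 47.2 CPM and 113 ± 57.9 CPM in other cells (class difference not called, adjusted p = 0.0878).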

How the data were processed

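The authors deposited raw counts of reads for each gene in each cell. Reads were aligned to mm10 with GSNAP and counted by HTSeq 0.5.3p3, as the submitters' processing notes name them. Smart-seq2 and Nextera XT libraries, per the labels' protocols, carry no strand and no molecular identifiers. Of 574 labelled cells 573 matched a column by name, leaving 1 column out of use. Rows naming no gene, a median of 90.4% of reads, and 92 spike-in rows stayed out of totals. No 2 cells had identical counts (0 cells).

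Cells are not replicates, so counts were summed per set and class (12 sums) and tested with edgeR 4.0.16 (R 4.3.3), TMM factors, quasi-likelihood F tests and a threshold of 0.05 after Benjamini-Hochberg adjustment. Genes had to pass filterByExpr and have a read in at least 10% of the cells of a class. Score, mitosis and replication genes were left out of tests between classes, and only the 8 score genes out of that between days. P-values between classes rest on the spread of the class difference over the sets. Those between days rest on the spread of the day 8 sets and on other genes. Either spread may be technical. Exact permutation tests changed the sign of the 6 set differences. Named genes were the 12 largest rises and falls (8 between days, 6 for class by day) among called protein-coding genes with a read in 20% of cells, 32 CPM and one direction in all sets, with up to 4 members of each list and fixed lineage and metabolic genes. Values of some named genes are not reported here. Members and lists were chosen with earlier results of these data known. The test was checked on simulated counts. Alternatives used DESeq2 1.42.0, limma 3.58.1 voom, other filters, thinning to 50000 reads, depth matching, other scores and class widths, and each set left out. Wherever cells were thinned, the class was cut again on the thinned counts. Tables were handled with pandas 2.3.3 in Python 3.11.15.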

Additional observations from a re-analysis of the deposited data

Results flagged for a closer look

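In 3 of 27 groups of 6 sets looked at, 1 set stood far from the other 5 in the log2 ratio of mitosis-high to other cells, and chance alone gives about 1 in 20. All 3 were day 14, the set with the fewest cells and reads: Espl1 was highest there at 2.87, Casp8ap2 highest at -0.030, and Ccdc105 lowest at -1.27. The difference between the classes varied between days for AA474408 (adjusted p = 4.23e-05), S100a8 (0.000241), Mir6236 (0.00585), Apoe (0.0253) and Cxcl10 (0.0303), all by edgeR's quasi-likelihood F test over 4 terms with 1 residual degree of freedom. AA474408 had 3.84 to 1401 CPM in mitosis-high cells and 4.49 to 5458 CPM in other cells of the sets.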

How the results depend on the processing

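Counts of genes higher and lower in mitosis-high cells were 45 and 49. They were within 1.5 times of these with DESeq2 size factors, the 4-marker score, a somewhat wider class, and without Slc34a2 and CT010467.1 or cell cycle genes in the totals. They were 214 and 272 with the DESeq2 Wald test, 70 and 53 with limma voom, 132 and 259 with no gene filter, 76 and 121 with cells thinned to 50000 reads, and 1 and 1 (Fzr1 and Ung) with cells of at least 200000 reads, where day 14 keeps 1 mitosis-high cell. They were 11 and 7 with other cells matched on depth, 25 and 4 with the score from Ccnb2, Aurka, Prc1 and Cenpf, 29 and 50 with a class of the top 50%, 58 and 160 against the bottom 25%, and 27 and 11 with no set block. Without one set at a time, in a fit where the set is the replicate block, they ranged from 10 to 39 and from 4 to 29. All 94 called genes kept their direction wherever they were tested, except 2 of 91 among cells of at least 200000 reads. The depth-matched fit keeps fewer cells, and otherwise the cause was not tested. Of the log2 differences of 166 named genes over these settings, 194 lost and 25 gained a call and 0 called values reversed.

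Day 8 against day 0 within the class gave 150 and 157 genes, 244 and 246 with DESeq2 size factors, 51 and 41 with the DESeq2 Wald test, 372 and 345 with the top 50%, and 26 and 28 in one fit with the other cells. Leaving out a day 8 set left no residual degree of freedom and gave no count. Genes whose class difference varied between days were 5, 40 with the DESeq2 likelihood ratio test, 367 with thinned cells and 0 with the top 50%, where 1979 had an unadjusted p under 0.05. With 5 sets the smallest exact permutation p is 0.0625, so single values could not pass. Their log2 differences then ranged from 0.390 to 0.562 for reads in genes per spike-in read, 0.498 to 0.655 for reads in genes and 0.146 to 0.219 for genes with a read.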

Other observations

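Calm2, a calmodulin gene with near copies in the genome, averaged 615 ± 53.5 CPM in mitosis-high cells and 370.5 ± 41.1 CPM in other cells (SD, n = 6 sets; log2 0.73 ± 0.07, adjusted p = 0.00234, edgeR), and it was chosen after its values were seen. Flt3, a receptor of early lymphoid and myeloid progenitors, averaged 7.18 ± 6.22 CPM in mitosis-high cells and 22.3 ± 14.2 CPM in other cells, lower in 5 of 6 sets and not called (log2 -1.65 ± 0.57, adjusted p = 0.271). Cdkn1a, the p53 target p21, averaged 14.9 ± 9.12 and 22.7 ± 12.3 CPM, and 0 of 15 measured p53 targets were called by edgeR or DESeq2 (2 at an unadjusted p under 0.05 by edgeR). Gata2 averaged 71.2, 11.4, 23.4 and 43.6 CPM from the lowest to the highest 25% of the mitosis score, so its lowest mean lay in the second step. Car2 followed the same order of levels, at 73.1, 17.5, 36 and 77.7 CPM, except that its highest mean lay in the top step.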
